A study of Mus musculus with 65 samples.

Results

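Retinas at day 14 of microglial repopulation (REPOP14, 4 mice) were compared with retinas at day 14 of microglial depletion (DEP14, 4 mice). This makes 8 of the 65 mice of the series. All 8 were adult wild type C57BL/6J mice. DEP14 mice were on a diet with PLX5622, an inhibitor of the receptor CSF1R, when the retina was taken. REPOP14 mice had received the same drug diet for 14 days and then control diet for 14 days. Both groups had therefore been exposed to the drug, and they differed in the presence of microglia, in the drug at sampling and in the time since the start of treatment, which cannot be told apart here. The 5 mice kept on control diet throughout (CD) gave the reference levels. Whole retinas were sequenced as bulk mRNA, so that fewer microglia and less RNA per microglial cell cannot be told apart either. DEP14 and REPOP14 each held 1 mouse with the title suffix re and 3 with the suffix RE, whose meaning is not stated. CD held 2 re and 3 RE mice, and 1 of its re mice carried the label 2M. Levels relative to CD were not adjusted for the suffix. Mice were assigned by their labels, each mouse is 1 replicate, and whether the mice shared a litter or cage is not stated, so that p-values measure the spread between these samples.

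Microglia are the resident macrophages of the central nervous system. They depend on CSF1R, the receptor for the growth factors CSF1 and IL-34, and are lost when it is inhibited. When inhibition ends, new microglia enter the tissue and multiply. Their known products include the 3 chains of C1q, which starts the classical complement pathway, and lysosomal enzymes such as cathepsin S.

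Each of the 8 mice was counted to a depth between 7367693 and 8577557 reads assigned to genes, and 3 counts corresponded to between 0.348 and 0.398 counts per 1e6 reads (CPM). This level covers counting error only. Arr3, the arrestin of cones, was the check on the tissue, with 1800 to 2104 counts per DEP14 mouse and 1526 to 1774 per REPOP14 mouse. Among the defining microglial markers, Cx3cr1, Tmem119, Itgam, Siglech and Trem2 had no count in any DEP14 mouse. The gene models of Cx3cr1 and Itgam overlap others, so that their counts are less certain. Lens crystallin transcripts stood apart in 2 DEP14 mice and are described with the retinal genes below.

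The repopulated retina was distinguished from the depleted one by a handful of microglial genes. Of 24509 genes tested without the crystallins, 5 were differentially expressed (DEGs, FDR under 0.01 and log2 fold change above 1), namely Ctss, C1qa, C1qb, C1qc and Lyz2. All 5 were higher in REPOP14, which is 0.0204% of the genes tested, and 0 were lower, with 287 lower at an unadjusted p under 0.05. Each alternative analysis of this comparison also found 0 lower genes. The FDR values are from the quasi-likelihood test of edgeR with the title suffix (RE or re) as covariate and the Benjamini-Hochberg adjustment. Leaving out any 1 of the 8 mice left 1 or 2 DEGs, with Ctss among them each time. Leaving out both DEP14 mice with lens transcripts left 0 DEGs, when Ctss had the smallest FDR (0.136, edgeR) and 584 genes had an unadjusted p under 0.05. The fit then compared 4 mice with 2.

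The promoters of the called genes are shown because these genes rose together and the transcription factor PU.1, encoded by Spi1, is known to act on purine-rich GGAA sites in macrophages. The stretches run 5′ to 3′ on the strand of the gene, from 250 bases before the RefSeq start to at most 30 bases past the first annotated start. They lie at chr3:95526536-95526815 for Ctss (plus strand), chr4:136893036-136893164 for C1qc (minus strand), chr4:136886171-136886450 for C1qb (minus strand) and chr10:117282292-117282522 for Lyz2 (minus strand) of GRCm38.p6. Capitals mark the letters GAGGAA or AGGAAGT on either strand, and where both motifs share bases the capitals run together.
Ctss promoter: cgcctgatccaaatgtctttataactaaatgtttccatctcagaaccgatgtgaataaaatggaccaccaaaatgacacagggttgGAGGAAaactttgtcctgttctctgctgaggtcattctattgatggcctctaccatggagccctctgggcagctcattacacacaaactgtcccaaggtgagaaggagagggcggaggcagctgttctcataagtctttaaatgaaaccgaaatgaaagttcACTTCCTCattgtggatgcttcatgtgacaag
C1qc promoter: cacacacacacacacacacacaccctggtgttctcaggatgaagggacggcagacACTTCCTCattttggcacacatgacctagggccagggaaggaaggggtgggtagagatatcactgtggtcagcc
C1qb promoter: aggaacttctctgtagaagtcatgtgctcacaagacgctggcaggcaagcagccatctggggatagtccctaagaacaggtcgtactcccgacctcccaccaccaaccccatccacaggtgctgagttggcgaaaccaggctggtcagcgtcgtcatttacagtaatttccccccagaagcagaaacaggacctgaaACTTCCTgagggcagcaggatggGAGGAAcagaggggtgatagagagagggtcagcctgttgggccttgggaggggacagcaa
Lyz2 promoter: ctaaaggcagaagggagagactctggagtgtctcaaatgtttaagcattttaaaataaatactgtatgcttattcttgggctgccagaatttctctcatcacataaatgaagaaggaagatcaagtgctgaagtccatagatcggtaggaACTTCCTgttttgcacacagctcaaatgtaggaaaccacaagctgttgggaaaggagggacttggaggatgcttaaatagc
AGGAAGT was present in the 300-base windows of all 4 of these genes, always on the opposite strand, against 9.57% of 27025 windows in the table. GAGGAA was present in 3 of the 4 windows (Ctss, C1qb and C1qc), against 28.3% of all windows. In Ctss 1 of 2 GAGGAA matches overlapped AGGAAGT at the start site, and in C1qc both motifs overlapped 195 bases upstream of the RefSeq start, so that these matches are not separate. Of the 20 genes of smallest p, 15 had a window, and AGGAAGT was found in 8 and GAGGAA in 9. These matches are letters in a window and were not tested as binding sites. C1qa was not among the genes with a window.

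Ctss encodes cathepsin S, a lysosomal protease of macrophages and microglia (chr3:95526786-95556403, GRCm38). The DEP14 mice had 0, 2, 0 and 1 counts, and the REPOP14 mice had 37, 28, 31 and 45. The groups did not overlap, and the summed level was 46.4-fold higher in REPOP14 (95% counting interval 15.6 to 228). The fitted log2 fold change was 5.32 ± 0.49 (SE, FDR = 3.49e-05, edgeR). Mean levels were 4.41 ± 0.985 CPM in REPOP14 (SD, n = 4), 0.0917 ± 0.119 in DEP14 (n = 4) and 6.99 ± 2.58 in CD (n = 5).

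The 3 C1q genes lie side by side on chromosome 4, on the minus strand, and encode the chains of 1 protein complex. C1qb (chr4:136880129-136886187) had no count in any DEP14 mouse and 27, 18, 18 and 25 counts in the REPOP14 mice. This is at least 29.0-fold higher when the depleted group is set to the floor of 3 counts over the group (FDR = 0.00234, edgeR). C1qc (chr4:136889804-136893065) likewise had no count in DEP14 and had 42, 16, 23 and 23 counts in REPOP14, at least 34.2-fold higher (FDR = 0.00173, edgeR). C1qa (chr4:136895917-136898803) had 1 count in 1 DEP14 mouse and 13, 13, 27 and 30 counts in REPOP14. Its summed level was 82.0-fold higher, with a counting interval from 14.3 to 3277 (FDR = 0.00234, edgeR). All REPOP14 mice lay above all DEP14 mice for each chain. With 1 mouse left out, the FDR ranged from 0.0238 to 0.0852 for C1qb and from 0.0172 to 0.0628 for C1qc (edgeR). For C1qa it ranged from 0.00729 to 0.0908 (edgeR). Per transcript length the 3 genes were at similar levels in REPOP14, with mean FPKM values (fragments scaled to transcript length and library size, by the authors) of 2.77 for C1qa, 2.53 for C1qb and 2.82 for C1qc, beside 2.73 for Ctss.

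Lyz2 encodes lysozyme M, a bactericidal enzyme of macrophages and monocytes (chr10:117277331-117282321). It had 2, 1, 2 and 1 counts in DEP14 and 15, 11, 14 and 22 in REPOP14, without overlap. The log2 fold change was 3.25 ± 0.45 (SE, FDR = 0.00912, edgeR). Among the DEGs it was the closest to the threshold, and it was not called with DESeq2, with filterByExpr, without the suffix, on FPKM values or with any 1 mouse left out (FDR from 0.0317 to 0.139, edgeR). The neighbouring copy Lyz1 had at most 2 counts in any of the 8 mice, and reads shared by the 2 copies cannot be assigned with certainty. The CD mice had 4, 3, 13, 7 and 5 counts of Lyz2, so that the mean of REPOP14 stood at 240% of the CD mean, with overlapping ranges.

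**Figure D1:**
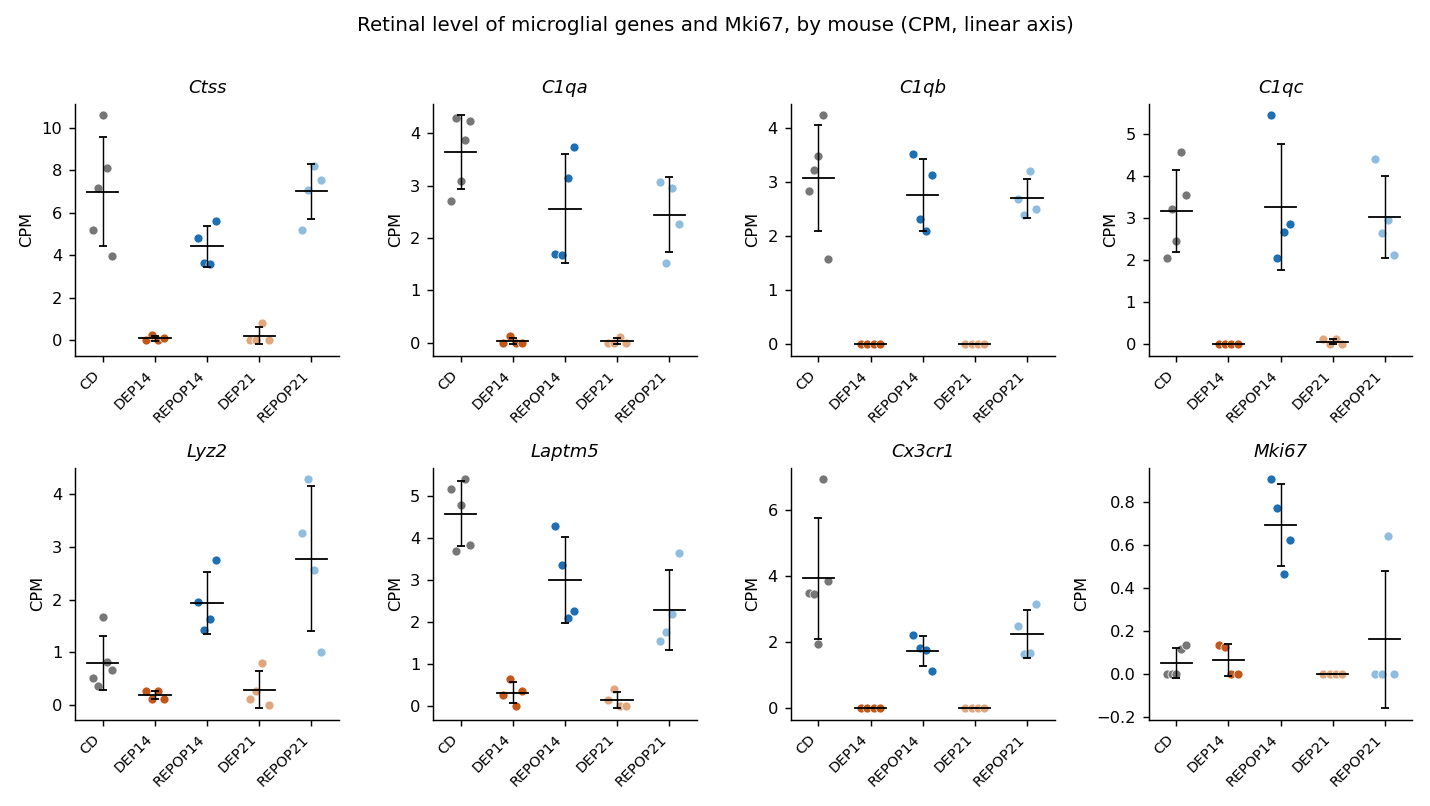
Level in CPM (linear axis) of 7 microglial genes and Mki67 in each mouse of CD (n = 5) and of DEP14, REPOP14, DEP21 and REPOP21 (n = 4 each), with 1 point per mouse and the mean ± SD in black. The depleted mice lie at or near 0 for the microglial genes apart from Lyz2, of which 1 DEP21 mouse had 7 counts, within the range of the CD counts. Every repopulated mouse lies above the depleted mice for the 7 microglial genes, and Mki67 is high in the 4 REPOP14 mice and in 1 REPOP21 mouse.

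A further 2 genes passed an FDR of 0.05 but not 0.01, which made 7 genes in all (0.0286% of those tested). Cx3cr1, the fractalkine receptor by which microglia respond to neurons, had no count in any DEP14 mouse and 17, 14, 15 and 9 counts in REPOP14, at least 18.1-fold higher (FDR = 0.0126, edgeR). Its gene model overlaps others, so that the assignment of its reads is less certain. Laptm5, a lysosomal membrane protein of blood-derived and microglial cells, had 2, 5, 0 and 3 counts in DEP14 and 33, 26, 18 and 18 in REPOP14. Its log2 fold change was 3.17 ± 0.44 (SE, FDR = 0.0126, edgeR). Both were called at FDR under 0.01 with DESeq2 and with no filter on low counts. With 1 mouse left out, however, the FDR of Cx3cr1 ranged from 0.0908 to 0.295 and that of Laptm5 from 0.0356 to 0.559, and between 1 and 4 genes in all passed an FDR of 0.05.

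Among the 20 genes of smallest p, 19 were higher in REPOP14 and 16 were on the microglia lists. The 13 that followed the 7 genes above did not pass (FDR of 0.0891 or more), and their values are descriptions. Selplg, the selectin ligand PSGL-1, had 0, 0, 0 and 2 counts in DEP14 and 11, 10, 8 and 10 in REPOP14. Mpeg1, the pore-forming perforin-2 of macrophages, had 11, 11, 19 and 2 counts in DEP14 and 40, 36, 51 and 48 in REPOP14. Both were without overlap. Tyrobp, the signalling adaptor of TREM2, had no count in DEP14 and 5 to 7 in each REPOP14 mouse. Of these 13 genes, 5 were undetected in every depleted mouse, Tyrobp and the following 4. Cd33, a sialic acid receptor, Ly86, a partner of the receptor CD180, Tmem119, a membrane protein of resident microglia, and Fcrls, an Fc receptor-like protein, had no count in DEP14. In REPOP14 they had 4 to 9, 2 to 11, 3 to 8 and 3 to 11 counts per mouse. The remaining ones on the lists were Dock2, a guanine nucleotide exchange factor of leukocyte migration (6 to 7 counts in REPOP14, at most 1 in DEP14), and Pld4, a lysosomal exonuclease (4 to 11 counts, at most 2 in DEP14).

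The other 4 of these 20 genes were on no microglia list. Myo1f, an unconventional myosin of leukocytes, had 0 to 1 counts in DEP14 and 4 to 10 in REPOP14. Capn3, a calpain protease, had 1 count in 1 DEP14 mouse and 4 to 8 in REPOP14. Its gene model overlaps Ganc on the same strand by 5682 bases, so that its reads are less certain. Mki67, which encodes the proliferation antigen Ki-67, had 1, 1, 0 and 0 counts in DEP14 and 7, 6, 4 and 5 in REPOP14 (log2 fold change 3.16 ± 0.70, SE, FDR = 0.350, edgeR). Its REPOP14 mice also lay above all 5 CD mice, which had 0 or 1 count each. Bace2, a membrane protease, was the only one lower, with 3, 5, 4 and 7 counts in DEP14 and 0, 1, 0 and 1 in REPOP14.

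**Figure D2:**
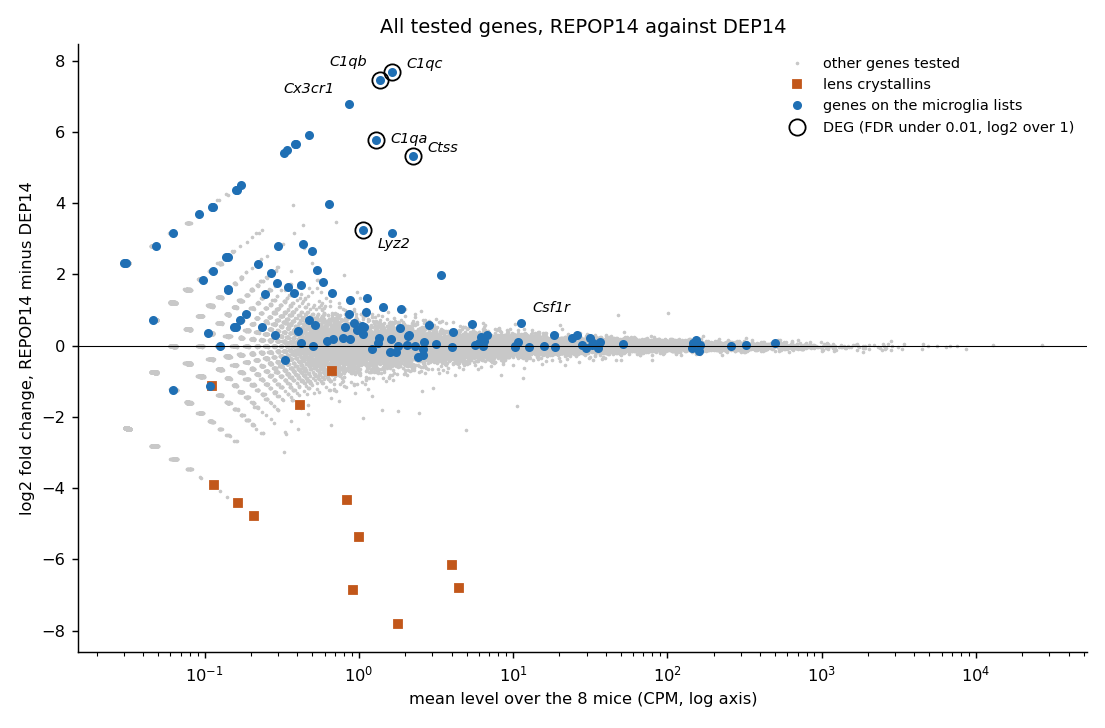
Fitted log2 fold change of REPOP14 minus DEP14 against the mean level over the 8 mice (CPM, log axis) for all genes tested, with 1 point per gene. Genes on the microglia lists (blue) and the 5 DEGs (ringed, all above 0) spread upwards at low levels, lens crystallins (orange squares) lie below 0, and genes of high level lie close to 0; for genes at 0 in a whole group the plotted value depends on the prior count of the fit.

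Across 6 lists of microglial genes with 132 genes in all, 129 were tested, 104 were higher in REPOP14 and 5 were DEGs. In 30 of the 129 (23.3%) every REPOP14 mouse lay above every DEP14 mouse, against 0.596% of all genes tested. At an unadjusted p under 0.05, 45 of the 129 were higher and 0 were lower, against 1.45% and 1.17% of all genes (2.62% in either direction). Crybb1, also a crystallin, was left out of these totals. The median log2 fold change was 0.51, or 0.38 with genes absent in a group set to their bound, and the median of all genes was -0.003. In 18 of the list genes the DEP14 mice had no count at all. These 18 passed the filter on low counts through REPOP14 alone and had to be higher there, so that the counts and medians of the lists are descriptions. Other listed genes stayed near the control level in depleted retina. Among 79 of them with at least 1 CPM in CD, the DEP14 mean was at or above 75% of the CD mean in 46 and under 25% in 11.

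Surface receptors had the largest median of the 6 lists. Of 36 receptor genes tested 35 were higher, 17 at an unadjusted p under 0.05, and the median log2 fold change was 1.10, or 0.69 with bounds. The median was 1.88 without DEP14 replicate 4, 1.66 without REPOP14 replicate 4 and 0.52 over the 11 receptors left by filterByExpr. No receptor was a DEG. P2ry12, the ADP receptor of homeostatic microglia, had 1, 1, 0 and 2 counts in DEP14 and 4, 3, 4 and 4 in REPOP14. Itgam, the CD11b integrin chain, had no count in DEP14 and 3, 3, 0 and 1 in REPOP14. Its gene model overlaps Gm49368 on the same strand by 55809 bases. Neither gene passed the test. The signalling genes around TREM2 and TYROBP had 14 of 19 higher and 6 at an unadjusted p under 0.05. Trem2, a lipid-sensing receptor, had no count in DEP14 and 6, 0, 0 and 4 counts in REPOP14, and Vav1 had no count in DEP14 and 1 to 3 per mouse in REPOP14.

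The complement list of 17 genes owed its 3 DEGs to C1q. The median log2 fold change was 0.29. Among the other members C3ar1, the receptor for the fragment C3a, had 1, 0, 1 and 0 counts in DEP14 and 5, 1, 2 and 4 in REPOP14, and Cfp, properdin of the alternative pathway, had 161 to 192 and 197 to 261 counts (log2 fold change 0.31, unadjusted p = 0.0153, edgeR). C3, the central component, had 17 to 30 counts in DEP14 and 15 to 20 in REPOP14 and did not pass (log2 fold change -0.31). The lysosome and phagocytosis list had 18 of 23 higher, with 10 at an unadjusted p under 0.05 and 2 DEGs. Cd68, the macrophage lysosomal marker, had 6, 12, 12 and 9 counts in DEP14 and 23, 16, 20 and 22 in REPOP14, without overlap (log2 fold change 1.03 ± 0.29, SE, unadjusted p = 0.00274, edgeR).

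No transcription factor of the lineage was called. Of 17 tested, 12 were higher, 0 were DEGs and the median log2 fold change was 0.09. Sall1, a zinc finger factor of microglial identity, was the only one at an unadjusted p under 0.05, with 5, 6, 2 and 6 counts in DEP14 and 12, 7, 10 and 7 in REPOP14. Spi1 itself had 2 counts over the 4 DEP14 mice and 7 over the 4 REPOP14 mice, where a difference was not detectable at this depth. Among 17 other microglial genes, Crybb1 left out, 12 were higher, and Lcp1, an actin-bundling protein of leukocytes, had 2 to 7 counts in DEP14 and 12 to 14 in REPOP14. Olfml3, a secreted olfactomedin-like protein, had 31 to 39 counts in DEP14 and 42 to 63 in REPOP14. None of these passed the test.

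**Figure D3:**
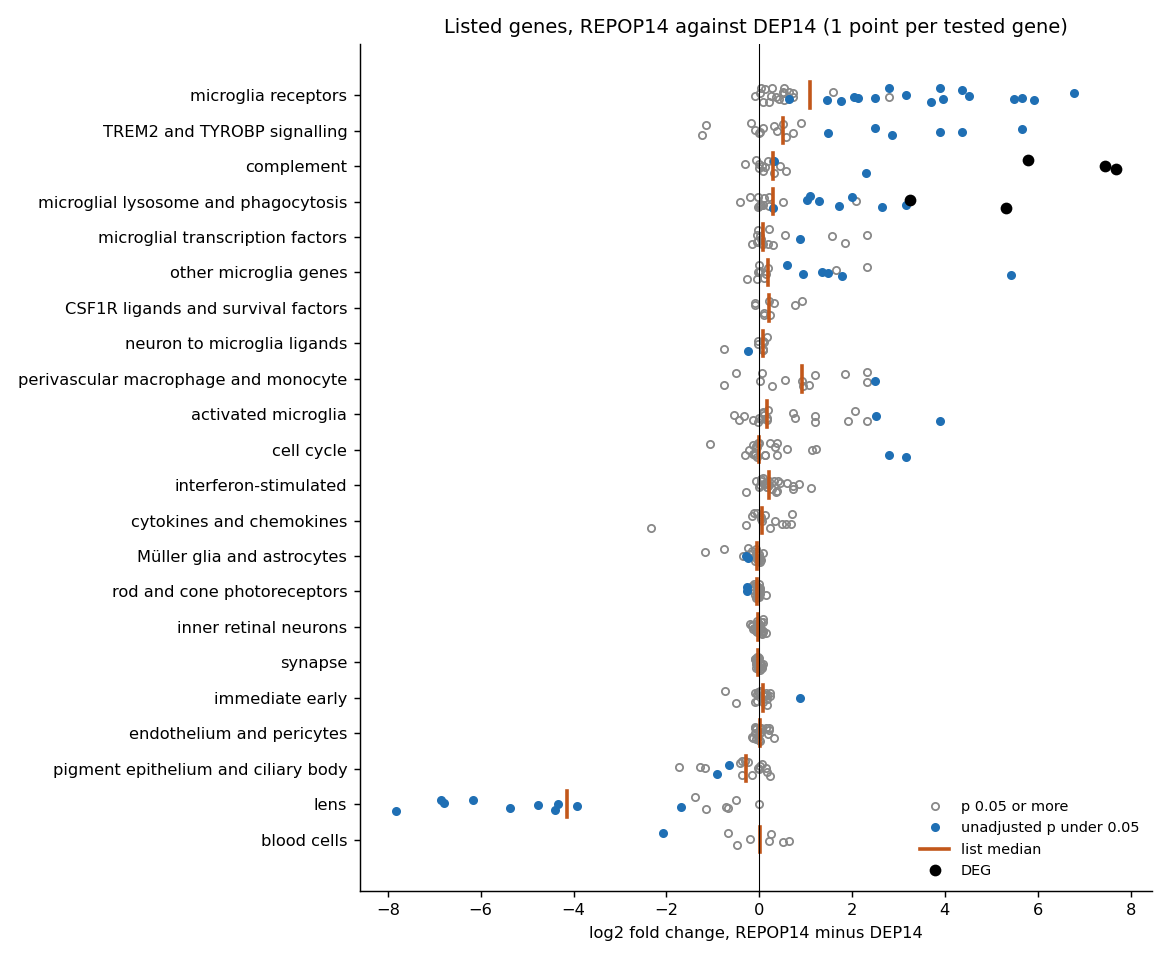
Log2 fold change of REPOP14 minus DEP14 for each tested gene of 22 lists, with 1 point per gene, blue for an unadjusted p under 0.05, black for DEGs and an orange bar for the list median. The microglia receptor list has a median of 1.10, the neuronal, synaptic and vascular lists stay close to 0, and the lens list lies far below 0.

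Csf1r, the target of the drug, kept many counts in the depleted retina. The DEP14 mice had 88, 62, 52 and 78 counts and the REPOP14 mice 102, 89, 129 and 122, with overlapping CPM ranges (log2 fold change 0.65 ± 0.16, SE, FDR = 0.9997, edgeR). By counts DEP14 stood at 51.7% of the CD mean. By the authors' FPKM values it stood at 2.51%, with 0.0549, 0.0244, 0 and 0.0686 FPKM in DEP14, and 1.03, 0.350, 0.847 and 0.573 in REPOP14. On that scale the groups did not overlap and the difference was 2.49 on the log2(FPKM + 0.1) scale, which did not pass either (FDR = 0.197, limma). The 3′ end of Csf1r overlaps Hmgxb3 on the opposite strand by 873 bases, and the counting is not stated to use strand, so that reads of the 2 genes cannot be told apart there. A gap of this kind, with at least 25% of the CD level left by counts and under 10% by FPKM, was seen in 2 of the 79 genes, Csf1r and Cd180.

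Set beside the control diet, the microglial genes reached different levels in REPOP14. Relative to the CD mean, REPOP14 stood at 103% for C1qc, 106% for Tyrobp, 98.6% for Cd33 and 129% for Mpeg1. Cx3cr1 stood at 43.8%, Selplg at 43.8%, Tmem119 at 42.0% and P2ry12 at 28.9%. Of these, Selplg, Tmem119 and P2ry12 lay below all 5 CD mice in every REPOP14 mouse. Of the 19 genes that were higher among the 20 of smallest p, 16 overlapped with CD, 2 lay below it and 1 (Mki67) lay above it. These 19, Lyz2 and Mki67 among them, were picked for high REPOP14 values against DEP14, so that their levels against CD lean upwards. The share of all genes that lay above or below CD is not given, and these counts are descriptions. Cybb, a subunit of the phagocyte NADPH oxidase, had 6, 5, 5 and 5 counts in REPOP14, 3, 0, 1 and 2 in DEP14 and at most 2 in any CD mouse. The differences from CD were not tested.

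**Figure D4:**
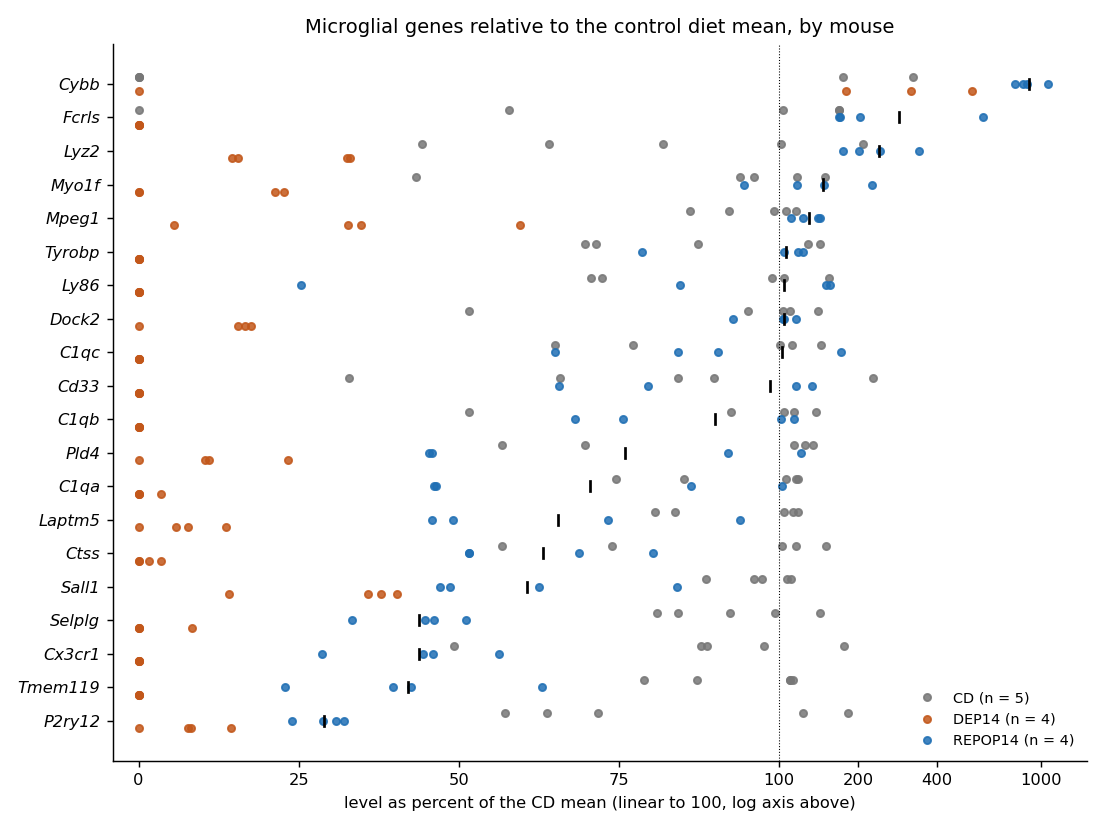
Level of 20 microglial genes in each mouse as percent of the CD mean (linear to 100, log axis above) for CD (grey, n = 5), DEP14 (orange, n = 4) and REPOP14 (blue, n = 4), with the REPOP14 mean as a black tick. P2ry12 (28.9%), Tmem119 (42.0%), Selplg and Cx3cr1 (43.8% each) lie lowest, C1qc and Tyrobp lie near 100, and Lyz2 (240%) and Cybb (896%) lie above.

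Repopulated and depleted retinas of other mice were also compared at day 21 (REPOP21 against DEP21, 4 mice each). Drug exposure was not matched there as at day 14, since DEP21 mice had 21 days of drug and, per the methods of the study, repopulated mice had 14. The comparison gave 4 DEGs of 24250 genes (0.0165%), C1qa, C1qb, C1qc and Ctss, all higher, and each was also a DEG at day 14. Lyz2 was higher there too but did not pass (log2 fold change 3.09, FDR = 0.188, edgeR). Of the 20 genes of smallest p at day 14, 19 were tested at day 21, 18 had the same sign and 17 had the same sign with an unadjusted p under 0.05. At day 21 that p was reached by 5.65% of all genes as higher and 4.96% as lower. Cx3cr1 had no count in any DEP21 mouse and 13, 13, 13 and 25 in REPOP21. Mki67 failed the detection rule at day 21, with no count in DEP21 and 0, 0, 5 and 0 in REPOP21. A test of the difference between the day 14 and the day 21 contrasts called 0 of 25720 genes in edgeR, where 1625 (6.32%) had an unadjusted p under 0.05 and no FDR was below 0.728. The likelihood ratio test called 0 as well. Its smallest FDR was 0.0177 over the 25735 genes fitted, which include the crystallins, and the gene that had it is not named here. Bace2 had a log2 difference of 0.52 at day 21, against -2.97 at day 14.

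Of the listed markers of other myeloid cells, some were at or near 0 in both groups and others were detected. Mrc1, Cd163, Pf4, Ccr2, F13a1 and Ly6c2, which mark border macrophages, platelets or monocytes, had at most 1 count in any of the 8 mice. In CD, Mrc1 had 0, 1, 3, 2 and 0 counts, so that a value near 0 says little at this depth. Cbr2, on the same list, had 1, 0, 0 and 0 counts in DEP14 and 4, 0, 1 and 0 in REPOP14. S100a9, a calcium-binding protein of neutrophils and monocytes, had 0, 3, 2 and 8 counts in DEP14 and 0, 10, 1 and 14 in REPOP14, and its partner S100a8 had at most 7. Stab1, a scavenger receptor, had 20 to 55 counts, Folr2, a folate receptor of macrophages, 3 to 12, and Ms4a7 at most 5, each with overlapping groups. Of 14 genes tested on the list of perivascular macrophages and monocytes 12 were higher and 0 were called, with a median log2 fold change of 0.92, or 0.41 with bounds, second to the microglia receptors among all lists by the first of these values. The median was 0.32 without REPOP14 replicate 4, 0.47 without REPOP14 replicate 1 and 0.61 without DEP14 replicate 3. Ccr1, a chemokine receptor, was the one at an unadjusted p under 0.05, with 0, 0, 0 and 1 counts in DEP14 and 2, 1, 4 and 1 in REPOP14. The summed level of this list ranged from 92.4 to 97.4 CPM in DEP14 and from 96.96 to 101 CPM in REPOP14, and Fn1 and Lyve1, which other retinal cells also express, made up most of it. Genes of activated microglia gave 0 calls among 22 tested. H2-Eb1, an MHC class II chain, had 0, 0, 2 and 0 counts in DEP14 and 3, 5, 3 and 3 in REPOP14, and Cst7, a cystatin, had no count and 1, 3, 0 and 3. The part of other myeloid cells in the difference was not tested beyond these values.

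Ligands and inflammatory genes showed no call. Il34, the CSF1R ligand of neurons, had 21 to 44 counts in DEP14 and 33 to 50 in REPOP14 (log2 fold change 0.33 ± 0.20, SE), and Csf1 had 46 to 75 and 53 to 65 (-0.09 ± 0.17). Both groups overlapped for each. Of 15 cytokine and chemokine genes tested 0 were called and 0 had an unadjusted p under 0.05. The interferon-stimulated list had 23 of 25 genes higher, with a median log2 fold change of 0.21 and 0 at an unadjusted p under 0.05, beside 12021 of 24509 genes higher in all. Its summed level ranged from 175 to 202 CPM in DEP14 and from 180 to 209 CPM in REPOP14. Among 23 cell cycle genes 11 were higher and 12 lower. Top2a, the topoisomerase of dividing cells, accompanied Mki67 at an unadjusted p under 0.05, with 0, 0, 1 and 0 counts in DEP14 and 0, 3, 4 and 3 in REPOP14. Mcm2 and Ube2c, next by p in this list, went the other way without reaching that p. Mcm2 had 90, 107, 90 and 112 counts in DEP14 and 91, 80, 93 and 82 in REPOP14. Ube2c had 6, 1, 3 and 3 in DEP14 and 0, 2, 1 and 3 in REPOP14.

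No gene of retinal neurons or glia was called. Of the 24 photoreceptor, 28 inner neuron, 20 synaptic, 22 Müller glia and astrocyte, and 20 vascular genes tested, 0 were called, and the list medians lay between -0.06 and 0.01. The depth set what could be seen. Of 12318 genes with a mean of at least 5 CPM, the 95% interval of the log2 fold change lay within -1 to 1 in 99.8% and within -0.5 to 0.5 in 89.0%. Of 8667 genes under 1 CPM it lay within -1 to 1 in 1.95%, so that changes of this size were mostly not detectable there.

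Some single genes of these lists had groups that did not overlap, without passing the test. Every REPOP14 mouse lay below every DEP14 mouse in 1 of 22 Müller glia and astrocyte genes and 2 of 24 photoreceptor genes. Over all genes tested this was so in 158 of 24509 (0.645%). The genes are given for their values only. Gfap, a filament protein of astrocytes that reactive Müller glia also make, had 160, 176, 177 and 170 counts in DEP14 and 149, 133, 154 and 146 in REPOP14. Its level was 21.6 ± 1.41 CPM in DEP14, 18.1 ± 0.924 in REPOP14 and 11.3 ± 0.942 in CD (SD, n = 4, 4 and 5), and the REPOP14 mice lay between the other groups (log2 fold change -0.25 ± 0.11, SE, FDR = 0.9997, edgeR). Arr3, cone arrestin, had 2042, 1895, 1800 and 2104 counts in DEP14 and 1621, 1526, 1774 and 1635 in REPOP14 (log2 fold change -0.27 ± 0.08, SE, FDR = 0.9997, edgeR). At day 21 Arr3 was lower as well, by a log2 difference of -0.37 ± 0.07 (SE, FDR = 0.148, edgeR), while Gfap was not (0.11 ± 0.19). Pde6h, the cone phosphodiesterase subunit, had a log2 fold change of -0.27 ± 0.09 at day 14.

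Lens crystallins marked 2 DEP14 mice. Cryaa had 188 and 85 counts in the first and second DEP14 mouse and none in the other two, with at most 1 in REPOP14, and Crybb2 had 107, 139, 0 and 2 counts against 0, 0, 3 and 0. A single CD mouse had 50 and 30 counts of these genes. All 16 lens genes tested were lower in REPOP14, 10 at an unadjusted p under 0.05 and 0 called (Cryaa FDR = 0.350, edgeR). Crystallins were left out of the counts for all genes and for the microglia lists above. The second DEP14 mouse also had 91 counts of Dct and 89 of Gja1, against at most 17 of either in the other DEP14 mice. The part of lens or ciliary tissue in the low genes was not tested, and with both mice left out the log2 fold changes of the 5 DEGs were 5.79 for Ctss, 7.36 for C1qc, 7.53 for C1qa, 7.34 for C1qb and 3.27 for Lyz2.

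**Figure D5:**
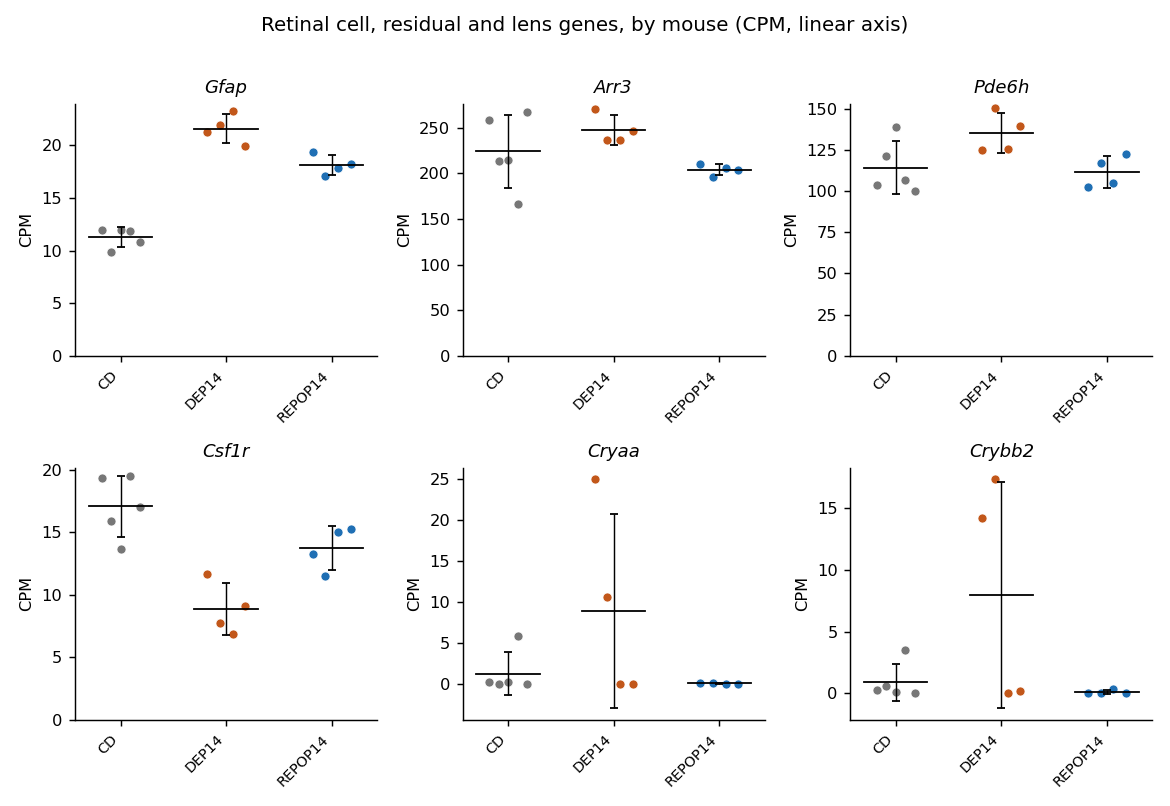
Level in CPM (linear axis) of 6 genes in each mouse of CD (n = 5), DEP14 and REPOP14 (n = 4 each), with 1 point per mouse and the mean ± SD in black. Gfap lies highest in DEP14 and Arr3 and Pde6h lie lower in REPOP14 than in DEP14, Csf1r keeps a mean of 8.85 CPM in DEP14, and Cryaa and Crybb2 are highest in 2 DEP14 mice, with 1 CD mouse next.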

How the data were processed

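Whole-retina mRNA of 65 mice in 16 groups was sequenced as 50-base single-end reads (BGISEQ-500). Per the labels and the study's methods, the authors aligned reads to mm10 with HISAT2 and deposited raw HTSeq counts and StringTie FPKM values per gene, with no tool versions given in the sources used here. The labels name poly-A selection and the methods also allow removal of ribosomal RNA, and use of strand in counting is not stated. Columns were matched to sample titles by case, and all 65 counted columns had a sample.

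The members and gene lists were chosen with earlier results of these data known. The deposited counts of the 8 mice were tested with the quasi-likelihood test of edgeR 4.0.16 in R 4.3.3, with TMM scaling and the title suffix as covariate. Genes were kept when at least 2 of the 4 mice of either group had a count (24524, or 24509 without crystallins). P-values were adjusted by Benjamini-Hochberg over all genes tested. DEGs passed an FDR of 0.01 with an absolute log2 fold change above 1. CPM values are TMM-scaled. Where a group had no count, folds were computed against 3 counts over the group, and ratios of sums carry exact 95% counting intervals. FPKM values, deposited by the authors, were used to compare genes per length and tested as log2(FPKM + 0.1) with limma 3.58.1. Day 21 was fitted likewise, and the difference between days as an interaction. Scripts were tested on simulated data.

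Named genes were the DEGs, the genes of next smallest p up to 20, up to 4 genes of smallest p in each list, a fixed set of markers, of which some are not reported here, and the crystallins. Lists are described by counts and medians only. Alternatives were RLE scaling, other filters, DESeq2 1.42.0, other edgeR tests, other covariates and sample sets, and leaving out each mouse. Replicates differed by more than sampling noise (chi-square per degree of freedom between 4.69 and 23.6). Promoter sequences are RefSeq windows of GRCm38.p6.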

Additional observations from a re-analysis of the deposited data

Results flagged for a closer look

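Of 250 sets of 4 mice tested, 23 had 1 mouse far from the other 3 (Dixon's test), and chance flags about 1 in 20. Most were genes with few counts. Among depleted mice, the second had C1qa at 0.125 CPM, the fourth Selplg at 0.234 and Ccr1 at 0.117, the first Capn3 and Cbr2 at 0.133 each, and the third H2-Eb1 at 0.263 and Top2a at 0.131, where the other 3 had none, while the first had Dock2 at 0 CPM against 1 count in each of the others. Among repopulated mice, Fcrls stood at 1.37 CPM in the fourth, Csf3 at 0.464 in the third, H2-Eb1 at 0.644 in the second, Crybb2 at 0.348 in the third, Crygs at 0.125 in the fourth, Xist at 0.348 in the third and Mrc1 at 0.130 in the first.

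Among more abundant genes, the second DEP14 mouse had Gja1 at 11.1, Dct at 11.4 and Mlana at 1.37 CPM, and the first had Egr4 at 1.86 CPM, all above the other 3. Vsx1 was low in the first (25.9 CPM), Lcn2 was low in the third (1.84 CPM) and Kdm5d was high in the third (53.6 CPM). The summed level of the microglia receptors was 125 CPM in the first DEP14 mouse, above the other 3, whose highest was 104 CPM. This mouse was the only one of its group with the suffix re. The re mice were also highest in CD (162 and 166 CPM against at most 143) and in REPOP14 (149 against at most 129). Egr4 was likewise highest in re mice, with 16 and 11 counts against 9, 4 and 3 in CD. In REPOP14 it had 16 counts against 7, 11 and 12.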

How the results depend on the processing

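At day 14 the 5 higher DEGs became 16 with the likelihood ratio test, 12 with all 65 mice in the fit, 3 without the title suffix, 1 with RE mice only and 0 without DEP14 replicates 1 and 2 (584 genes at an unadjusted p under 0.05), and 1 to 2 with any 1 mouse left out. Under a replicate block the count was 1 (Ctss), and the numbers did not pair the mice, with correlations of deviations from -0.592 to -0.140 among RE mice. At day 21 the 4 higher DEGs became 28, with 2 lower, by the likelihood ratio test, 8 at FDR under 0.05 and 1 to 2 with any 1 mouse left out, and 6 under the replicate block. The cause of these shifts was not tested. Ctss was called in each alternative at day 14 except without DEP14 replicates 1 and 2. The log2 fold change of Csf1 (-0.09) turned to 0.0293 without DEP14 replicate 3, ranging from -0.213 to 0.0293. Of the other values for single genes, 570 kept direction and side of the threshold, 27 passed it and 49 no longer did. Depth limits genes under 1 CPM.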

Other observations

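The genes here were chosen after their values were seen. Prss56, a serine protease of Müller glia, had 60, 94, 70 and 118 counts in DEP14 and 40, 70, 52 and 33 in REPOP14, with overlapping groups (log2 fold change -0.81, unadjusted p = 0.00164, edgeR). At day 21 the log2 fold change was -0.90 (FDR = 0.363, edgeR), so that the gene did not pass at either day. The DEP14 mean stood at 164% of the CD mean and the REPOP14 mean at 93.6%.

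The first REPOP14 mouse held transcripts of surface epithelium. Krt5 had 36 counts there against at most 2 in any other of the 8 mice, Krt12 had 64 against at most 12 in the other REPOP14 mice, and Krt13 and Muc4 had 15 and 24 against at most 1 and 2 in the other 7 mice. With this mouse left out, Ctss was the single DEG.

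Cd180, a receptor of the Toll-like family, stood at 114% of the CD mean in DEP14 by counts but was listed at 0 FPKM in all 4 DEP14 mice.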
